A study of Mus musculus with 6 samples.

Results

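The circadian clock genes Arntl (also named Bmal1), Clock, Per1, Per2, Per3, Cry1, Cry2, Nr1d1, Nr1d2 and Dbp were examined in CD11b+ cells sorted from mouse spleen. These 10 genes were chosen by symbol from the 55335 genes of the count table for their place in the clock, with earlier results of these data known. All 10 were found and all 10 passed the filter on low counts. The libraries came from 3 wild-type samples with a myocardial infarction and renal denervation, an interruption of the kidney's nerves (MI+RDN), and from 3 wild-type samples with a myocardial infarction alone (MI). The infarct was common to both groups. Strain, age, sex, the hour of collection, the interval after the infarct and whether a replicate was a single animal or a pool are not stated in the labels, so p-values measure only the spread between these samples.

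The clock is a loop of transcription factors that cycles daily in most cells, myeloid cells included. The proteins of Arntl and Clock pair up and switch on genes that carry an E-box, among them Per, Cry, Nr1d1, Nr1d2 and Dbp. PER and CRY proteins then repress that pair, and the REV-ERB receptors made from Nr1d1 and Nr1d2 repress Arntl through RORE elements. DBP in turn acts on D-box elements, as in the Per genes. In rhythmic tissues Arntl transcripts are therefore high when those of Nr1d1 and Dbp are low. Per1 and Per2 are also induced acutely, by cAMP signalling and by glucocorticoids.

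Start-site windows of 250 bases before to 50 bases after the annotated start were available from RefSeq on build GRCm38.p6 for 9 of the 10 genes, 13 windows in all. Both strands were searched for 6 strings of letters. The E-box CACGTG was found in windows of Per1 and Cry1 and lies in 7.15% of all 32851 windows. Its variant CACGTT was found in Cry1, Cry2 and Nr1d1 and lies in 4.68% of windows. The D-box TTATGTAA was found only in Per3, where it occurs at 2 places, and lies in 0.938% of windows. The related TTATGCAA was found in Per1 and lies in 0.743% of windows. The RORE core TAGGTCA was found in Arntl and lies in 2.61% of windows, and the cAMP-response half-site TGACGT was found in Per1 and lies in 7.51%. None of these strings overlapped another in the windows of the 10 genes. A match is a description of letters and does not show that a factor binds there.

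The windows below are shown because they carry the elements of the arms whose values are compared, in lower case with the matched letters in capitals. The Arntl window lies on the plus strand at chr7:113207261-113207560, with the RORE core beginning 31 bases after the start. The upstream Per1 window lies on the plus strand at chr11:69098699-69098998, with the E-box beginning 166 bases and TTATGCAA 24 bases before the start. The downstream Per1 window lies on the plus strand at chr11:69099902-69100201, with the cAMP-response half-site beginning 132 bases before its start. The Per3 window lies on the minus strand at chr4:151044616-151044915, with D-boxes beginning 205 and 158 bases before the start.
Arntl: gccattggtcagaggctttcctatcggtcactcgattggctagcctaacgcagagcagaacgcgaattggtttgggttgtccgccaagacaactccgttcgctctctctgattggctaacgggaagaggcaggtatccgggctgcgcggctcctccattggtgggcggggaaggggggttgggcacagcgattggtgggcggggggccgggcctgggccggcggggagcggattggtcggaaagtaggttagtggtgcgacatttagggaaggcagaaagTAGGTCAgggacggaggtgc
Per1, upstream start: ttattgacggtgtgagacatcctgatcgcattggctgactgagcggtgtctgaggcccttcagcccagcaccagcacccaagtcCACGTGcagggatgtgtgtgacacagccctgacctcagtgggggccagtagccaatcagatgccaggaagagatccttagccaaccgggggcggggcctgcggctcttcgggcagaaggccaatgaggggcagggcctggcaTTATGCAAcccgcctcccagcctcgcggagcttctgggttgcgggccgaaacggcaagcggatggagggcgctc
Per1, downstream start: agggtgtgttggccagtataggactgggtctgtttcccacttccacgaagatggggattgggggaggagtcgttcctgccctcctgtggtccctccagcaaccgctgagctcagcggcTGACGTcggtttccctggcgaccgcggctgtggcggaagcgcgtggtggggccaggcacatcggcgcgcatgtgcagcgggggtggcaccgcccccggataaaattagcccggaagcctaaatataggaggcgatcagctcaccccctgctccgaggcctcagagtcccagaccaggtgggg
Per3: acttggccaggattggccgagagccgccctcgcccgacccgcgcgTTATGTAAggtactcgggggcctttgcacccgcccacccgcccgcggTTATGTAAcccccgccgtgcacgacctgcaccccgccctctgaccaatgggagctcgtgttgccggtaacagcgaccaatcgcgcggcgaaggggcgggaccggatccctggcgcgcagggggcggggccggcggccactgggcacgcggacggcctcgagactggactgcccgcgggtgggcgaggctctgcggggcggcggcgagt

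Library totals ran from 24634555 to 28013900 counts in MI+RDN and from 21663440 to 24677865 in MI. The clock genes together took 5765 to 8338 counts per MI+RDN library and 4628 to 7851 per MI library. Itgam, which encodes the sort marker CD11b, stood at 1489 to 1666 CPM (a gene's counts relative to library size, scaled with TMM factors) in MI+RDN and at 1011 to 1301 CPM in MI. The summed levels of several cell type marker lists did not overlap between the groups. The summed level of 13 neutrophil markers was 27622 to 51081 CPM in MI+RDN against 15338 to 24128 in MI. Taken singly, 5 of these 13 genes had separate groups, all higher in MI+RDN, against 12.4% of all tested genes. The summed level of 8 B cell markers was 289 to 458 CPM in MI+RDN against 559 to 819 in MI. That of 8 dendritic cell markers was 371 to 477 CPM in MI+RDN against 622 to 844 in MI. In bulk RNA, fewer cells of a type and less RNA per cell cannot be told apart, and the part of these markers in the clock results was not tested.

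No clock gene passed the test between MI+RDN and MI. By the quasi-likelihood test of edgeR, with p-values adjusted over 14849 genes by the Benjamini-Hochberg method (BH) at 0.05, 0 of the 10 were called, where 1.01% of all tested genes were. The edgeR BH-adjusted p-values of the 10 ran from 0.129 for Per2 to 0.976 for Dbp. At an unadjusted p under 0.05 there were 2 of the 10, Per2 and Arntl, against 19.9% of all tested genes. The DESeq2 Wald test, which called 7.85% of genes, called 1 of the 10, Per2 (adjusted p = 0.00938, where the alternative fits ranged from that value to 0.307), while limma-voom and robust edgeR called 0. The groups did not overlap in 4 of the 10 genes, Per2 and Cry2 being higher and Arntl and Clock lower in MI+RDN, against 26.2% of all tested genes. The median log2 fold change of the 10 was 0.070, against 0.0080 over all tested genes.

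**Figure D1:**
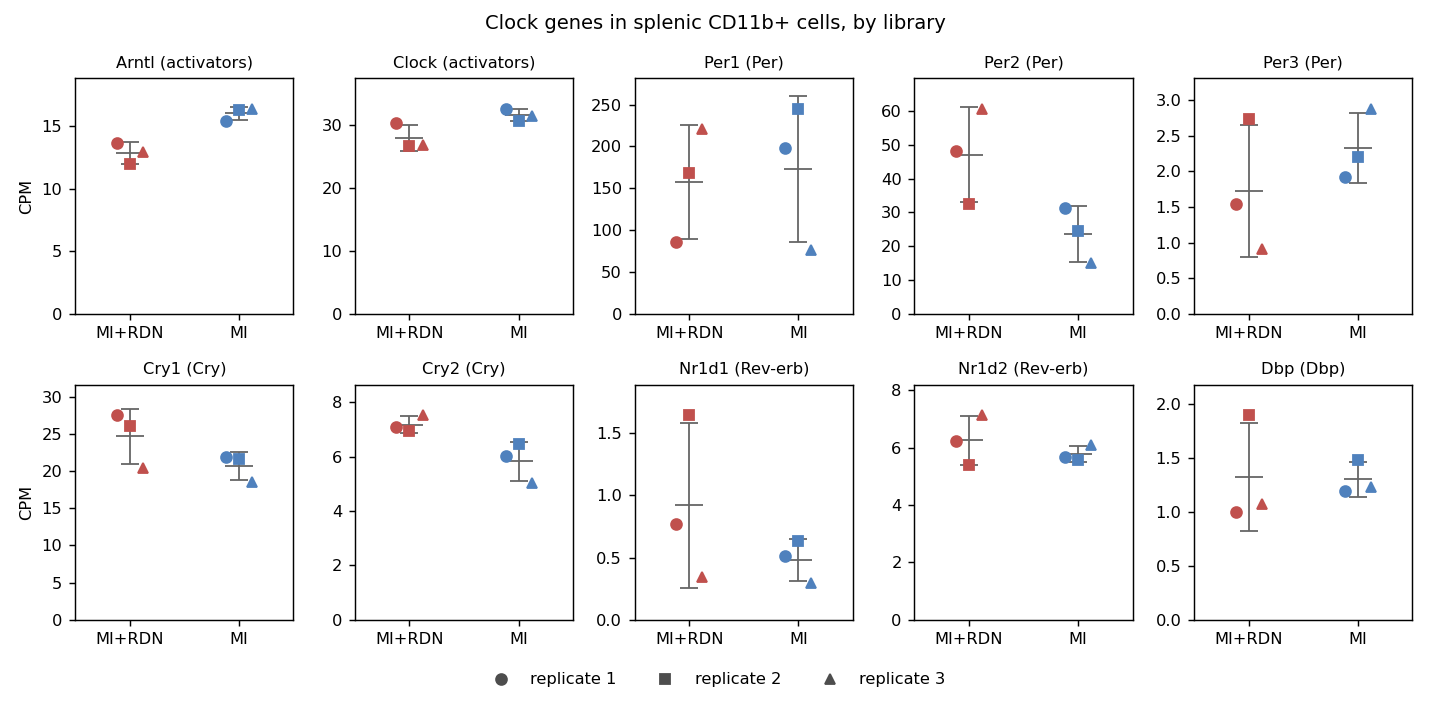
Level of each of the 10 clock genes in CPM (vertical axes, each from 0) in the 3 MI+RDN and the 3 MI libraries; points are libraries, and bars show the mean ± SD. Arntl and Clock sit lower and Per2 and Cry2 higher in every MI+RDN library than in any MI library, and the groups overlap for the other 6 genes.

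Both activator genes stood slightly lower in MI+RDN with little spread, and neither passed. Arntl (ENSMUSG00000055116), the partner without which the clock stops in mice, had 13.7, 11.9 and 12.9 CPM in MI+RDN replicates 1 to 3, against 15.4, 16.3 and 16.4 CPM in MI replicates 1 to 3. All 3 MI+RDN libraries lay under all 3 MI libraries, by a narrow margin. The log2 fold change was -0.32 (SE 0.117, 95% interval -0.59 to -0.049, edgeR BH-adjusted p = 0.188). Clock (ENSMUSG00000029238), its DNA-binding partner, stood at 30.3, 26.7 and 26.8 CPM in MI+RDN and at 32.5, 30.6 and 31.4 CPM in MI. MI+RDN replicate 1 came just under the lowest MI library. The log2 fold change of Clock was -0.17 (95% interval -0.40 to 0.052, edgeR BH-adjusted p = 0.363). The pooled SD of Arntl within groups was 0.076 on the log2 scale, larger than that of only 4.60% of the 1870 tested genes of like level (mean log2 CPM within 0.5).

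The 3 Per genes, whose proteins form the negative limb, did not move as a block. Per2 (ENSMUSG00000055866) had 48.3, 32.4 and 60.6 CPM in MI+RDN replicates 1 to 3, against 31.3, 24.6 and 14.9 CPM in MI replicates 1 to 3. The groups were separate, but MI+RDN replicate 2 and MI replicate 1 differed by little. Its log2 fold change of 0.999 (95% interval 0.31 to 1.69) was the largest of the 10, yet the edgeR BH-adjusted p was 0.129. Per1 (ENSMUSG00000020893) stood at 85.5, 168 and 221 CPM in MI+RDN, against 198, 245 and 76.2 CPM in MI. Each group held a low library, MI+RDN replicate 1 and MI replicate 3, and the groups overlapped. The log2 fold change of Per1 was -0.13 (95% interval -1.17 to 0.91, edgeR BH-adjusted p = 0.900), and its sign turned to 0.21 without MI replicate 2 and to 0.17 without MI+RDN replicate 1. Per3 (ENSMUSG00000028957), the least abundant of the 3, had 1.54, 2.74 and 0.903 CPM in MI+RDN and 1.92, 2.21 and 2.88 CPM in MI. MI+RDN replicate 3 was the lowest library for Per3 and the highest for Per2, and MI replicate 3 was the highest for Per3 and the lowest for Per1 and Per2.

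Per3 rested on few reads. Its raw counts were 40, 75 and 21 in MI+RDN and 45, 49 and 77 in MI. The exact Poisson 95% interval for MI+RDN replicate 3 was 13.0 to 32.1 counts, below that of 59.0 to 94.0 for MI+RDN replicate 2, where intervals cover counting error only. The log2 fold change of Per3 was -0.43 (edgeR BH-adjusted p = 0.598), -0.95 when MI+RDN replicate 2 was left out and -0.14 when replicate 3 of that group was.

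Per1 and Per2 also varied more than most genes inside a group. The pooled SD of Per1 within groups was 0.81 on the log2 scale, larger than that of 99.5% of the 1087 tested genes of like level, whose median was 0.130. For Per2 it was 0.50, larger than that of 97.1% of 2115 such genes. Cry2, Nr1d2, Clock and Arntl lay at the other end, where 4.60% to 12.7% of genes of like level had a smaller SD.

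The Cry genes, which encode the strongest repressors of the activator pair, stood slightly higher in MI+RDN. Cry1 (ENSMUSG00000020038) stood at 27.5, 26.1 and 20.4 CPM in MI+RDN, against 21.9, 21.6 and 18.5 CPM in MI. MI+RDN replicate 3 fell among the MI libraries. Cry2 (ENSMUSG00000068742) stood at 7.08, 6.94 and 7.52 CPM in MI+RDN, against 6.01, 6.45 and 5.04 CPM in MI, and its groups were separate. The log2 fold changes were 0.25 for Cry1 (95% interval -0.075 to 0.58) and 0.30 for Cry2 (95% interval -0.087 to 0.69), with edgeR BH-adjusted p-values of 0.362 for Cry1 and 0.361 for Cry2.

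The REV-ERB genes differed from each other in spread. Nr1d1 (ENSMUSG00000020889), which encodes REV-ERB alpha, had 20, 45 and 8 raw counts in MI+RDN and 12, 14 and 8 in MI. These were 0.770, 1.64 and 0.344 CPM in MI+RDN and 0.511, 0.631 and 0.299 CPM in MI. MI+RDN replicate 2 stood apart from the other 5 libraries, with an exact Poisson 95% interval of 32.8 to 60.2 counts, above that of MI+RDN replicate 1 (12.2 to 30.9). The log2 fold change of Nr1d1 was 0.95 (95% interval -0.45 to 2.35, edgeR BH-adjusted p = 0.421) and 0.21 without MI+RDN replicate 2. Nr1d2 (ENSMUSG00000021775), which encodes REV-ERB beta, stood at 6.24, 5.41 and 7.14 CPM in MI+RDN and at 5.67, 5.59 and 6.09 CPM in MI. MI+RDN replicate 2, the highest library for Nr1d1, was the lowest for Nr1d2, and the log2 fold change of Nr1d2 was 0.11 (95% interval -0.29 to 0.52, edgeR BH-adjusted p = 0.759), with its sign turned to -0.028 without scaling factors and to -0.0096 without MI+RDN replicate 3.

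Dbp (ENSMUSG00000059824), a direct output of the activator pair and one of the most strongly cycling transcripts in many tissues, was low in all libraries. It had 26, 52 and 25 raw counts in MI+RDN and 28, 33 and 33 in MI, or 1.001, 1.90 and 1.07 CPM in MI+RDN and 1.19, 1.49 and 1.23 CPM in MI. MI+RDN replicate 2 was the highest and the other 2 MI+RDN libraries were the lowest. The log2 fold change was 0.028 (95% interval -0.78 to 0.83, edgeR BH-adjusted p = 0.976), and its sign changed between alternative fits.

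**Figure D2:**
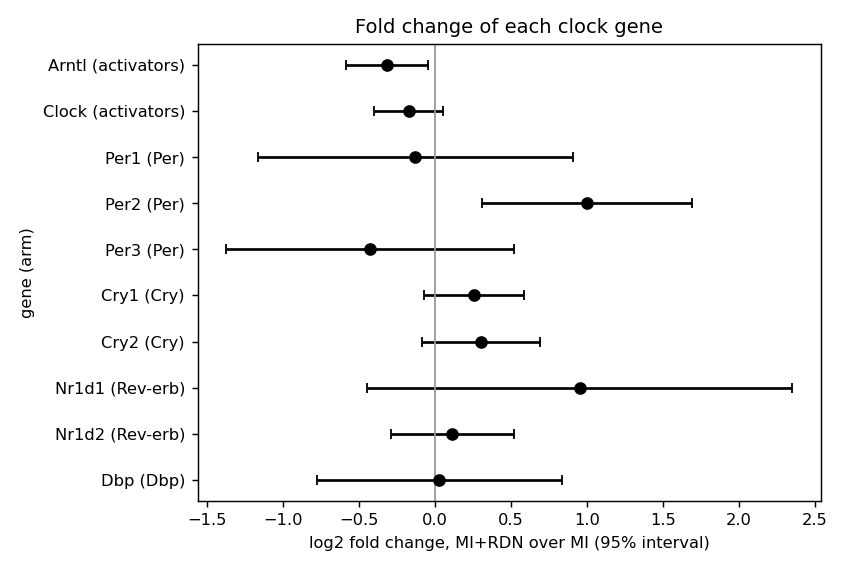
Log2 fold change of each clock gene, MI+RDN over MI (horizontal axis), with its unadjusted 95% interval; genes run down the page by arm. The intervals of Arntl (-0.59 to -0.049) and Per2 (0.31 to 1.69) leave out 0 before adjustment, and those of the other 8 genes include it.

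Per length of annotated exon, Per1 was the most abundant clock transcript, at 28.0 ± 12.1 CPM per kb in MI+RDN and 30.7 ± 15.4 in MI (SD, n = 3 each). Per2 followed with 8.04 ± 2.41 CPM per kb in MI+RDN and 4.03 ± 1.41 in MI, and Cry1 with 7.39 ± 1.12 and 6.20 ± 0.565. The order of Per2 and Cry1 changed between the groups and lay within their spread in MI+RDN. Clock and Arntl came next, with Clock at 2.03 ± 0.152 CPM per kb in MI+RDN and 2.29 ± 0.0690 in MI, and Arntl at 1.71 ± 0.115 and 2.13 ± 0.0695. Nr1d2 and Cry2 did not differ beyond their spread in MI+RDN, at 1.16 ± 0.160 and 1.14 ± 0.0479 CPM per kb. Dbp, Nr1d1 and Per3 were the lowest, at 0.443 ± 0.167, 0.299 ± 0.215 and 0.180 ± 0.0971 CPM per kb in MI+RDN and at 0.436 ± 0.0535, 0.156 ± 0.0547 and 0.243 ± 0.0512 in MI. In MI+RDN the range of Nr1d1 overlapped those of Dbp and Per3, while each Dbp value lay above each Per3 value. In MI, 89.0% of tested genes lay below Per1 on this scale, and 3.23% lay below Nr1d1.

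Some of these genes share exon bases with a neighbour on the opposite strand in the GRCm38 annotation. Thra, a thyroid hormone receptor gene, covers 8.55% of the exon length of Nr1d1 and stood at 5.50 to 8.15 CPM in MI+RDN and 6.04 to 7.45 CPM in MI. Sphk2, a sphingosine kinase gene, covers 18.0% of that of Dbp and stood at 57.1 to 64.1 CPM in MI+RDN and 44.3 to 53.7 CPM in MI. No source used here gives the strand setting of the counting, so reads of Nr1d1 and Dbp cannot be told apart from those of Thra and Sphk2 in the shared bases. Thra and Sphk2 were chosen for this overlap and not by the rule for named genes.

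Read by arm and by library, the Cry arm stood on the other side of 0 from the activator arm in 6 of 6 libraries, the Rev-erb arm in 5, and the Per and Dbp arms in 3 each. Each arm was scored as the mean of its genes' log2 CPM after each gene was centred on the 6 libraries, with no test. Without scaling factors the Cry and Rev-erb arms did so in 4 libraries each and the Cry groups overlapped. With TMM factors the activator and Cry arms each had separate groups, of opposite sign, so the 6 of 6 restates that group difference. Within MI+RDN, replicate 1 held the highest value of both arms, while within MI, replicate 3 held the highest activator and the lowest Cry value. The activator arm was at -0.018, -0.21 and -0.15 in MI+RDN replicates 1 to 3 and at 0.12, 0.11 and 0.14 in MI replicates 1 to 3. The Rev-erb arm stood at 0.19, 0.60 and -0.22 in MI+RDN and at -0.14, -0.017 and -0.41 in MI. The Dbp arm stood at -0.34, 0.54 and -0.24 in MI+RDN and at -0.10, 0.20 and -0.056 in MI. MI+RDN replicate 2 thus combined the lowest activator value with the highest Rev-erb and Dbp values. Its Rev-erb value came from Nr1d1 (centred at 1.34, from 45 raw counts), while Nr1d2 was at its lowest there (-0.15). This library also had the highest summed neutrophil markers, 51081 CPM against 15338 to 36331 in the others. Mpo stood at 179 CPM there against 11.8 to 29.8, but Csf3r, Cxcr2 and Mmp9 were not highest there. The part of these markers was not tested. MI+RDN replicate 3, with the next lowest activator value, had Rev-erb and Dbp values under the mean of the 6 libraries.

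The Per arm stood at -0.17, 0.23 and 0.15 in MI+RDN and at 0.12, 0.17 and -0.50 in MI, and the Cry arm at 0.21, 0.16 and 0.040 in MI+RDN and at -0.069, -0.028 and -0.31 in MI. MI replicate 3 was the lowest library for Per1, Per2, Cry1, Cry2 and Nr1d1, 5 of the 10 genes, and held the highest activator value. The difference of the group means, MI+RDN minus MI, was -0.25 for the activator arm, 0.14 for Per, 0.27 for Cry, 0.38 for Rev-erb and -0.028 for Dbp. The Rev-erb difference was 0.16 without MI+RDN replicate 2, and the Per difference was -0.081 without MI replicate 3. With TMM factors, only the activator and Cry arms had groups that did not overlap.

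The ratios of Arntl to Nr1d1, Dbp and Per3 were lowest in MI+RDN replicate 2, and those to Per1 and Per2 in MI+RDN replicate 3. The log2 ratio of Arntl to Nr1d1, in CPM and so compared only between libraries, was 4.01, 2.80 and 4.94 in MI+RDN and 4.71, 4.52 and 5.44 in MI. Within this ratio, MI+RDN replicate 3 lay above 2 of the MI libraries. The mean difference, MI+RDN minus MI, was -0.97, and -0.41 without MI+RDN replicate 2. The log2 ratio of Arntl to Dbp was 3.67, 2.60 and 3.49 in MI+RDN and 3.61, 3.38 and 3.65 in MI, a mean difference of -0.29, or 0.035 without MI+RDN replicate 2. The Arntl to Dbp ratio of MI+RDN replicate 1 was the highest of all 6. The log2 ratio of Arntl to Per2 was -1.81, -1.43 and -2.22 in MI+RDN and -1.02, -0.59 and 0.14 in MI. Its groups had to be separate, because Arntl was lower and Per2 higher in every MI+RDN library than in any MI library. For the ratios to Per1 and Per3 the groups overlapped. Because the hour of collection is not given, whether sampling time differed between groups or libraries was not tested, and it cannot be told apart from renal denervation in a difference between the groups.

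**Figure D3:**
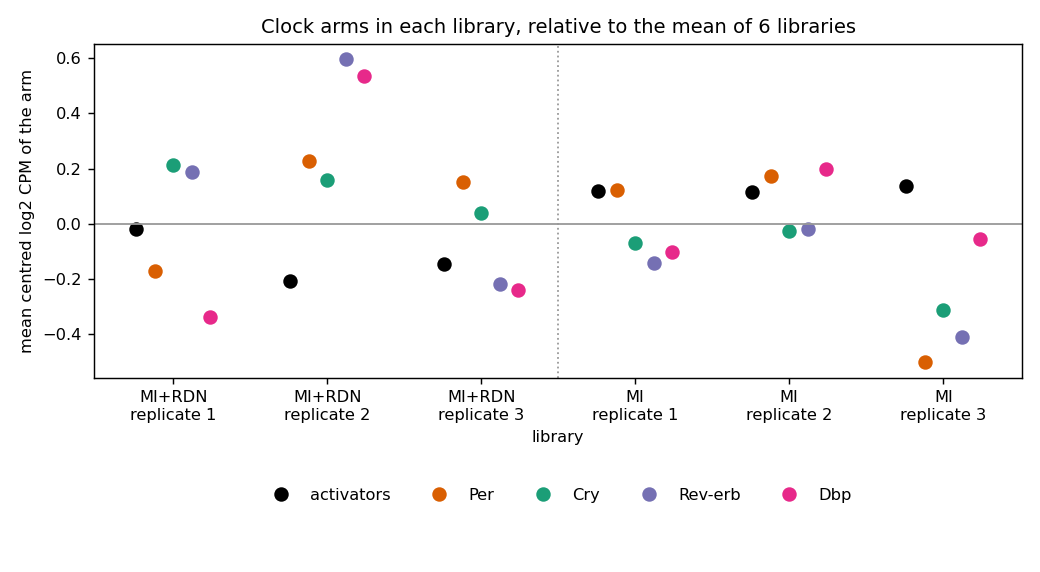
Mean centred log2 CPM of each clock arm (vertical axis) in each library, with MI+RDN left and MI right of the dotted line; 0 is the mean of the 6 libraries. The activator arm is below 0 in the 3 MI+RDN libraries and above 0 in the 3 MI libraries, while the Rev-erb and Dbp arms are highest in MI+RDN replicate 2 (0.60 and 0.54). The Rev-erb value there comes from Nr1d1 (1.34), with Nr1d2 at -0.15.

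Other genes of the clock and its inputs and outputs were read from 9 lists of 76 genes, of which 69 were tested. Of these, edgeR called 0 higher and 1 lower in MI+RDN, Tlr9, against 0.296% and 0.714% of all tested genes. At an unadjusted p under 0.05 there were 18 of the 69, against 19.9% of all tested genes. DESeq2 called 9, against 7.85% of all tested genes. Limma-voom called 1 and robust edgeR 2, against 111 and 277 of all 14849 tested genes. The same shares of all genes stand beside the counts of each list below. Their median log2 fold change was 0.037, against 0.0080 over all tested genes. Groups did not overlap in 11 genes that were higher and 8 that were lower, 27.5% of those tested, against 26.2% of all genes.

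The PAR bZIP factors Tef and Hlf and their antagonist Nfil3 held 0 of 3 genes called by edgeR, 1 at an unadjusted p under 0.05 and 1 called by DESeq2 (Tef). Tef, a paralog of Dbp that binds the same D-box, stood at 6.52 ± 0.527 CPM in MI+RDN against 10.6 ± 1.27 in MI (SD, n = 3), a log2 fold change of -0.71 with separate groups (edgeR BH-adjusted p = 0.0738). Nfil3, a repressor at D-boxes, stood at 105 ± 14.4 CPM in MI+RDN against 84.7 ± 13.2 in MI. Of 3 auxiliary repressors at E-boxes, edgeR and DESeq2 called 0, with 1 at an unadjusted p under 0.05 (Ciart). Ciart, which encodes CHRONO, stood at 18.8 ± 3.73 CPM in MI+RDN against 12.7 ± 3.14 in MI with separate groups (log2 fold change 0.57, edgeR BH-adjusted p = 0.209), and Bhlhe40 at 67.0 ± 4.30 against 74.6 ± 11.3. Rora, the only tested member of the ROR receptors and the activator paralog Npas2, stood at 3.09 ± 0.223 CPM in MI+RDN against 4.09 ± 1.18 in MI. The other genes of that list did not reach the count filter.

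Of 13 tested enzymes that modify or degrade PER and CRY, edgeR and DESeq2 called 0, with 1 at an unadjusted p under 0.05 (Csnk2b), and their median log2 fold change was 0.087. Csnk2b, the regulatory subunit of casein kinase II, stood at 86.7 ± 3.42 CPM in MI+RDN against 75.4 ± 2.41 in MI, and the phosphatase subunit gene Ppp1ca at 402 ± 28.0 against 347 ± 6.10. Of 11 cofactors of CLOCK, PER and REV-ERB, edgeR called 0 and DESeq2 1, with 3 at an unadjusted p under 0.05 and a median of 0.057. Among them, the histone methyltransferase gene Kmt2a stood at a mean of 94.0 CPM in MI+RDN against 118 in MI. Of 12 output genes that cycle in many tissues, edgeR called 0 and DESeq2 1 (Nampt), with 2 at an unadjusted p under 0.05 and a median of 0.071. Nampt, the rate-limiting enzyme of NAD salvage, stood at 122 CPM in MI+RDN (SD 10.97, n = 3) against 89.9 ± 10.6 in MI (log2 fold change 0.44, edgeR BH-adjusted p = 0.0980).

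Of 9 glucocorticoid-induced genes, edgeR called 0 and DESeq2 2 (Fkbp5 and Cebpd), with 3 at an unadjusted p under 0.05 and a median log2 fold change of 0.037. Fkbp5, a cochaperone of the glucocorticoid receptor, stood at 160, 284 and 279 CPM in MI+RDN and at 96.7, 106 and 53.9 CPM in MI. The fold change of Fkbp5 was 2.82 with separate groups, at an edgeR BH-adjusted p of 0.0574. Cebpd stood at 136 ± 11.6 CPM in MI+RDN against 100.4 ± 11.8 in MI. Of 12 immediate early genes of the CREB and serum-response type, edgeR called 0, DESeq2 1 (Nr4a3) and robust edgeR 1, with 3 at an unadjusted p under 0.05 and a median of -0.068. Nr4a3, an orphan nuclear receptor gene, stood at 2.37 ± 0.249 CPM in MI+RDN against 4.95 ± 0.568 in MI (log2 fold change -1.06, edgeR BH-adjusted p = 0.0571), and Egr3 at 4.95 ± 0.490 against 7.56 ± 1.17.

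The last list held 12 leukocyte genes reported to follow the clock in myeloid or endothelial cells, of which 9 were tested. Of these, edgeR called 1 (Tlr9) and DESeq2 3 (Tlr9, Icam1 and S100a8), with 5 at an unadjusted p under 0.05 and a median log2 fold change of -0.16. Tlr9, the receptor for unmethylated CpG DNA, fell to 36.1, 32.6 and 37.1 CPM in MI+RDN, against 53.1, 52.1 and 52.5 CPM in MI (log2 fold change -0.58, with SE 0.0879 and an edgeR BH-adjusted p = 0.0401). The groups were far apart relative to their spread, and with a library left out the log2 fold change was -0.63 to -0.54, but the edgeR BH-adjusted p was then 0.0599 to 0.131, in fits with fewer samples. Without a filter it was 0.0793, with the replicate block 0.0751, and over all alternatives it ran from 8.89e-05 with DESeq2 to 0.131. Tlr9 is also carried by B cells and plasmacytoid dendritic cells, and the B cell and dendritic cell markers were lower in MI+RDN in 8 of 8 and 8 of 8 genes. The dendritic cell list is mostly of conventional dendritic cells. Its plasmacytoid marker Siglech was low throughout, at 0.256 to 0.539 CPM in MI+RDN against 0.897 to 1.06 in MI (edgeR BH-adjusted p = 0.150). The part of these markers in the Tlr9 result was not tested. Icam1, an adhesion molecule gene, stood at 92.1, 90.4 and 84.9 CPM in MI+RDN, against 118, 107 and 127 CPM in MI (log2 fold change -0.40, edgeR BH-adjusted p = 0.0779). S100a8, a calprotectin subunit gene that is also on the neutrophil marker list, stood at 2964, 4841 and 2491 CPM in MI+RDN, against 1847, 1853 and 1257 CPM in MI (log2 fold change 1.05, edgeR BH-adjusted p = 0.0989). The groups were separate for both genes, and S100a8 stood higher in MI+RDN together with the summed neutrophil markers, whose part in it was not tested. Icam1 and S100a8 were named after their values were seen.

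Among the marker lists, the summed level of 8 T cell markers was 26.9 to 48.1 CPM in MI+RDN against 61.5 to 82.4 in MI, and that of 6 erythroid markers was 171 to 244 against 385 to 774. Red pulp macrophage markers summed to 520 to 760 CPM in MI+RDN against 765 to 958 in MI. Monocyte markers (3663 to 3936 CPM in MI+RDN and 3730 to 4062 in MI), NK cell markers (125 to 184 and 155 to 166) and eosinophil, basophil and mast cell markers (27.3 to 47.2 and 22.4 to 41.0) overlapped between the groups. Genes called by edgeR were 2 of 13 neutrophil markers and 1 of 8 monocyte markers, all higher, and 3 of 8 dendritic cell markers and 1 of 8 T cell markers, all lower. The monocyte markers went both ways, with 5 of 8 log2 fold changes negative. Their groups were separate in 1 gene that was higher and 3 that were lower in MI+RDN. DESeq2 called 2 of them, Ly6c2 and Cx3cr1, with edgeR log2 fold changes of 0.92 and -0.65. No gene of the B cell, NK cell, erythroid, red pulp macrophage or eosinophil, basophil and mast cell lists was called by edgeR. Of their 31 tested genes, 18 had an unadjusted p under 0.05 and 16 were called by DESeq2. The groups did not overlap, with MI+RDN lower, in 8 of 8 B cell markers and 5 of 7 red pulp macrophage markers. Over all tested genes, edgeR called 1.01% and DESeq2 7.85%, and 19.9% had an unadjusted p under 0.05. Non-overlap was found with MI+RDN lower in 13.7% and with MI+RDN higher in 12.4% of all tested genes. No marker was at 0 in all libraries. Epx and Fcer1a, of eosinophils and of mast cells and basophils, were at 0 in at least 1 library.

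The order of the libraries for Per1 was shared with few tested genes. Within MI+RDN, Per1 was highest in replicate 3 and lowest in replicate 1, and within MI it was highest in replicate 2 and lowest in replicate 3. The same order in both groups was found in 0 of the other 9 clock genes, in 2 of 9 glucocorticoid-induced genes, in 1 of 12 immediate early genes and in 1.90% of all tested genes. At that share of all genes, 0 of 9 does not set the clock genes apart. The genes were Ddit4 and Dusp1 in the glucocorticoid list and Sik1 among the immediate early genes, with Ddit4 also in the output list. No tested gene of the other lists, cell type markers included, had this order. Dusp1, a phosphatase of MAP kinases, had 1288, 1441 and 1805 CPM in MI+RDN replicates 1 to 3 and 1834, 2145 and 1079 CPM in MI replicates 1 to 3. Sik1, a kinase gene induced by cAMP, stood at 146, 193 and 221 CPM in MI+RDN and at 279, 294 and 189 CPM in MI. Ddit4, an inhibitor of mTORC1 signalling, stood at 37.1, 50.2 and 82.7 CPM in MI+RDN and at 99.8, 136 and 69.5 CPM in MI. This order was looked for after the values of Per1 had been seen, and Dusp1 and Sik1 were named because of it.

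**Figure D4:**
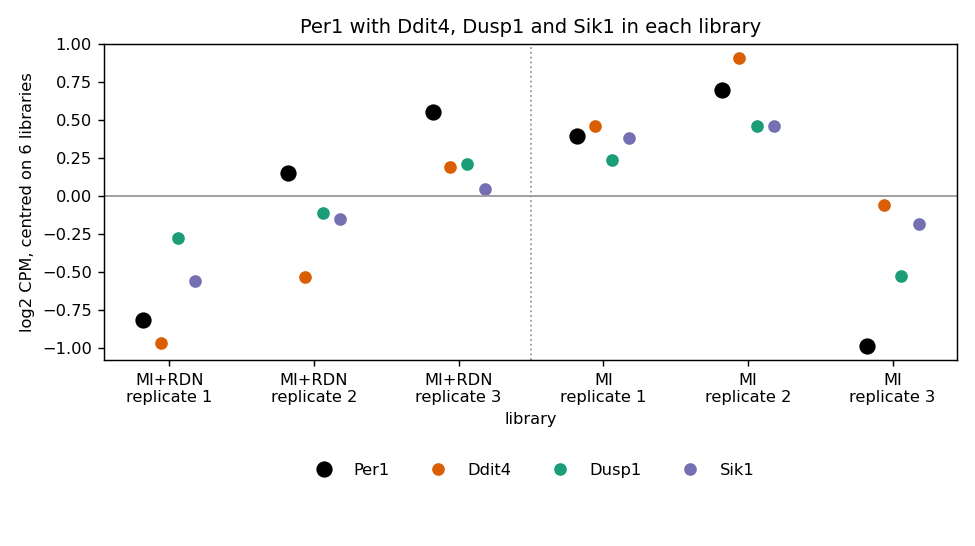
Log2 CPM of Per1, Ddit4, Dusp1 and Sik1, each centred on its mean over the 6 libraries (vertical axis), in each library, with MI+RDN left and MI right of the dotted line. Ddit4, Dusp1 and Sik1 are shown because they rank the libraries as Per1 does in both groups, so the likeness follows from their selection. Of all tested genes, 1.90% have this order. MI+RDN replicate 1 and MI replicate 3 are lowest within their groups.

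The genes most like Arntl and Dbp over the 6 libraries were found by the root mean square difference of centred log2 CPM among 13119 other genes with a mean of at least 1 CPM. For Arntl they were Gopc, Cyb5d1, Hlcs, Taf1a and Mtmr2, with differences of 0.039 to 0.046. For Dbp they were Timm8a1, Gm10073, 1700052K11Rik, Mcm7 and Mcm3, with differences of 0.048 to 0.098. Like Dbp itself, the genes chosen for Dbp were all highest in MI+RDN replicate 2. None of these 10 genes was a clock gene. None passed the test between the groups, against 1.01% of all tested genes. They were chosen for likeness to Arntl or Dbp, neither of which passed, so this follows largely from the choice.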

How the data were processed

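Bulk RNA of splenic CD11b+ cells was sequenced on strand-specific TruSeq libraries, per the labels' protocols. Per the submitters' processing notes, FastQC 0.11.2, the aligner STAR and build GRCm39 were used. No source used here names the counting tool, annotation release or strand setting. The authors deposited 1 table of raw counts per Ensembl gene and library. Symbols were matched by ID for 55154 of 55335 genes, and exon lengths came from GENCODE on GRCm38.

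In R 4.3.3 with edgeR 4.0.16, filterByExpr kept 14849 genes. TMM factors scaled the libraries, and the 2 groups were compared by the quasi-likelihood test with Benjamini-Hochberg adjustment at 0.05, with no covariates. Each SE was obtained by dividing the size of the log2 fold change by the root of the F statistic. Log2 CPM used a prior count of 2. The common coefficient of variation was 20.7%. DESeq2 1.42.0, limma 3.58.1 (voom), other scalings, filters and prior counts, a replicate block and each library left out were alternatives. The edgeR procedure was tested on a simulated table in which 100 genes changed 2-fold and 100 changed 4-fold. It recovered 48% of the 2-fold and 90% of the 4-fold changes, so a gene that was not called may still differ. Of its calls, 8.61% were false, more than the threshold of 0.05 aims for. Figures used Python 3.11.15 and matplotlib 3.10.9.

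The genes and lists were chosen with earlier results of these data known. Named were the 10 clock genes, the called genes of each list or its 2 of lowest p, and the 5 genes most like Arntl and most like Dbp. Values of some genes of the wider clock lists are not reported here.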

Additional observations from a re-analysis of the deposited data

How the results depend on the processing

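No clock gene was called in any alternative but the DESeq2 Wald test, which called 1 (Per2). The number of genes called moved from 150 to 475 without scaling factors (62 higher, 413 lower, and a median log2 fold change of -0.13 over all genes), 21 without a filter, 290 at a mean of at least 5 CPM, 277 with robust edgeR, 1165 with DESeq2 and 0 to 67 with a library left out. The replicate numbers pair nothing in the labels, and deviations of same-numbered libraries correlated across genes at 0.018, -0.065 and 0.064. With the replicate block 87 genes and 0 clock genes were called. Without scaling factors the activator arm difference was -0.38 and the Cry arm difference 0.14. The TMM factors were 1.02 to 1.09 in the MI libraries and 0.938 to 0.978 in the MI+RDN libraries. Leaving them out therefore lowers the log2 fold changes of all genes together, with a median of -0.13 against 0.0080 with them. The cause of the other moves was not tested. The sign of Dbp turned with upper-quartile factors (-0.0028), without scaling factors (-0.10), with the replicate block (-0.024) and with limma-voom (-0.014), and with a library left out it ran from -0.34 to 0.20. The sign of Nr1d2 turned without scaling factors (-0.028) and ran from -0.0096 to 0.19 with a library left out, and that of Per1 ran from -0.49 to 0.21. Per2 ran from 0.75 to 1.26 and Arntl from -0.36 to -0.29 with a library left out. The arm differences then ran from -0.30 to -0.22 for activators, -0.081 to 0.26 for Per, 0.18 to 0.33 for Cry, 0.16 to 0.57 for Rev-erb and -0.32 to 0.14 for Dbp. The difference in the log2 ratio ran from -0.50 to 0.035 for Arntl to Dbp and from -1.49 to -0.41 for Arntl to Nr1d1. With 8 to 77 counts per library, depth limits Nr1d1, Dbp and Per3 most.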
